A study of Mus musculus with 8 samples.

Results

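The 42 genes described here encode proteins of the mitotic and DNA synthesis phases of the cell cycle. They were selected by gene name, and each matched 1 of the 23282 lines of the count table. All 42 were among the 14567 genes that passed the filter on low counts. By role, 26 act in mitosis and 8 form the S-phase side of the contrast described below (Mcm2 to Mcm7, Pcna and Rrm2). A further 5 also serve S phase (Rrm1, Tyms, Clspn, Ccne1 and Ccne2), and Ccna2, Hmgb2 and Gmnn were placed on neither side.

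Dividing cells copy their DNA in S phase and separate the copies in mitosis. Genes of DNA synthesis are switched on late in G1 by E2F transcription factors, whereas most mitotic genes peak later, in G2 and M, under the B-MYB and FOXM1 factors. Both sets are repressed in resting cells by the DREAM complex. In the intestine most division takes place in the crypts, where the progeny of stem cells divide several times before they differentiate. Immune cells and stromal cells of the mucosa can divide as well. In bulk tissue, fewer dividing cells and less of a transcript per cell cannot be told apart.

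RNA was sequenced from intestinal tissue of wild-type C57BL/6 mice in 4 groups of 2 libraries. The group labelled NC received phosphate-buffered saline by gavage and no dextran sodium sulfate (DSS), a polysaccharide toxic to the colon lining that serves as a colitis model. The group labelled PC received saline and then 3% (w/v) DSS in drinking water for 6 days. The group labelled Ex was given exosomes of bovine colostrum (vesicles released by cells, here from first milk) at 1 mg a day for 3 weeks and no DSS, and the group labelled ExDSS received the exosomes and then DSS. Gut region and mouse age are not given. Whether both libraries of a group stem from different animals is not stated, and p-values here reflect library-to-library spread that could be technical.

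The libraries differed widely in ways the groups do not explain. Totals ran from 8813622 to 12308537 counts in 7 libraries and came to 1163147 in Ex 2, where the ribosomal precursor Rn45s held 53.5% of the counts. Pancreatic acinar markers held 8.31% of the counts of NC 2 and 18.2% of those of ExDSS 1, against at most 0.0617% elsewhere. Epithelial markers (10 genes, such as Epcam and Krt8) summed to between 4040 and 7010 normalised CPM (CPM after TMM scaling, a level relative to the library's effective total) in 7 libraries and to 64.0 in Ex 2, where Cdx2 had no count, so the labelled tissue is hardly represented in that library. Neutrophil markers (7 genes found) summed to between 2300 and 3670 normalised CPM in the libraries labelled NC and ExDSS, and to between 12.1 and 13.9 in those labelled PC and Ex. S100a8 was thus abundant in the library group labelled as untreated, at 824 and 791 normalised CPM, and near 0 in the group labelled as DSS-treated, at 0.291 and 0.628. Of the 7 genes, Csf3r and Mmp9 did not follow the split of the sum. Csf3r was at 0 in both ExDSS libraries, and Mmp9 was at 0 in NC 2 and 1.59 in ExDSS 2, against 2.47 and 2.51 in PC. Directions below are those of the labels, and the summed neutrophil markers therefore moved with every comparison of NC or ExDSS with PC or Ex. Their part in the results was not tested.

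Mitotic and S-phase members differed in the motifs of their promoters. RefSeq promoters (GRCm38.p6, from 250 bases before to 50 bases after the gene start) were found for 35 of the 42 members, as 37 promoters. The sequences were searched on both strands for CCAAT, the box bound by NF-Y, for TTTGAA or TTCGAA, the cell cycle homology region bound by DREAM and B-MYB complexes, and for the E2F cores TTTCCCGC, TTTGGCGC and TTTCGCGC. Overlapping matches were counted. A homology region was present in 20 of 24 promoters of mitotic members (83.3%) and in 2 of 8 promoters of the S-phase side (25.0%), against 19.2% of all 32851 promoters in the table. The E2F cores showed the opposite order, in 4 of 8 promoters of the S-phase side (50.0%) and 2 of 24 of the mitotic members (8.33%), against 1.84% of all. CCAAT was found in 79.2% of mitotic, in all 8 S-phase promoters and in 37.4% of all promoters. A match is a description of the letters and does not show that a factor binds. Mcm7 and Prc1 each have 2 promoters in the table.

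Shown are the promoters of the 2 mitotic and the 2 S-phase members with the smallest p for the interaction of DSS and exosomes, with every match to these motifs in capitals. In GRCm38.p6 they lie at chr19:34922108-34922407 on the plus strand (Kif20b), chr2:127831810-127832109 on the minus strand (Bub1), chr12:24708004-24708303 on the plus strand (Rrm2) and chr1:128359656-128359955 on the minus strand (Mcm6).
Kif20b: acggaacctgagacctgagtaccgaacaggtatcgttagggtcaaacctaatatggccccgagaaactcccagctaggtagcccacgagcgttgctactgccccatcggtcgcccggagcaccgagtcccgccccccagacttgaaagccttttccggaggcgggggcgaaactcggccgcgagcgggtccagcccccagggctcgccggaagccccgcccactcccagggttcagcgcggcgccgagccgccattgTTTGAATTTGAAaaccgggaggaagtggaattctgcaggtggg
Bub1: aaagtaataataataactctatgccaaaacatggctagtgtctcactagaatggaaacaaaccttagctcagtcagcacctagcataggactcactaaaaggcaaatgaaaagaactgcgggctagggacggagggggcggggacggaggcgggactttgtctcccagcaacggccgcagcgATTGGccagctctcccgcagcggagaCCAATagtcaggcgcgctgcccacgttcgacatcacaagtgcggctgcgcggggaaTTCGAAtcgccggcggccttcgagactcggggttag
Rrm2: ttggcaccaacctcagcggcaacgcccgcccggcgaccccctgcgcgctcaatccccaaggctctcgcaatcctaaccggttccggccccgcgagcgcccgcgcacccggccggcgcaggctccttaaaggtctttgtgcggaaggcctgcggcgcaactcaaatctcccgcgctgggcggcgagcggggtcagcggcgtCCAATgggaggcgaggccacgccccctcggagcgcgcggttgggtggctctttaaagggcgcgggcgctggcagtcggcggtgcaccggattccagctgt
Mcm6: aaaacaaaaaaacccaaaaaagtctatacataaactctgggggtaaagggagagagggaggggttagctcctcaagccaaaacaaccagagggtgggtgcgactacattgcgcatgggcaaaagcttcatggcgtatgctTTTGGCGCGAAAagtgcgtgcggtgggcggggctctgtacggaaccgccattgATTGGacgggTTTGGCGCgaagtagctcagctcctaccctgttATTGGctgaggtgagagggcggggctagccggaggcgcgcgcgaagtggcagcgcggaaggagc
The Kif20b promoter holds a pair of adjoining TTTGAA homology regions just after the gene start and neither a CCAAT box nor an E2F core. Bub1 holds 2 CCAAT boxes and 1 homology region, Rrm2 1 CCAAT box alone, and Mcm6 2 CCAAT boxes and 3 E2F cores, of which 2 overlap.

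**Figure D1:**
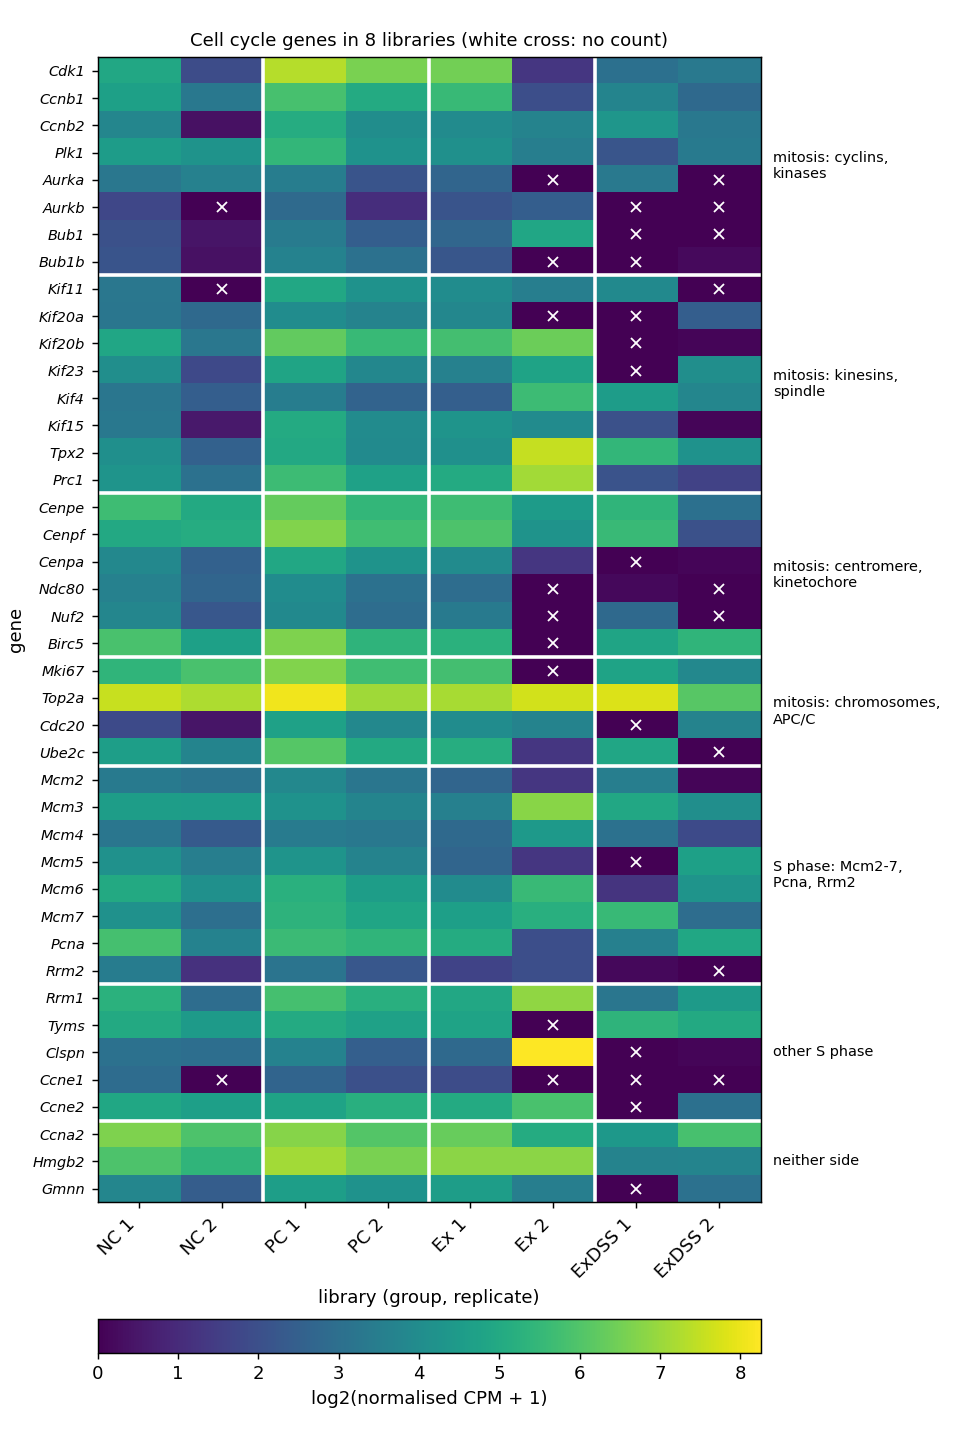
Each row is 1 of the 42 cell cycle genes and each column 1 library. Colour gives log2 of the normalised CPM plus 1, and a white cross marks a gene with no count. NC 1, PC 1, PC 2 and Ex 1 have no cross, and the crosses fall in NC 2 (3 genes), Ex 2 (9), ExDSS 1 (13) and ExDSS 2 (9).

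Among the mitotic cyclins and kinases, Cdk1, the kinase that drives entry into mitosis, gave the widest range. Cdk1 (chromosome 10, 69336635 to 69352912) stood at 29.6 and 2.76 normalised CPM in NC 1 and NC 2, at 159.5 and 94.8 in PC, at 89.4 and 1.49 in Ex, and at 7.27 and 9.13 in ExDSS. Both PC libraries and Ex 1 were high, and the other 5 lay between 1.49 and 29.6. Ccnb1, its mitotic cyclin partner, stood at 24.8 and 8.77 in NC, 57.1 and 32.2 in PC, 46.1 and 2.98 in Ex, and 12.2 and 6.11 in ExDSS. The checkpoint kinase Bub1, which watches over the attachment of chromosomes to the spindle, had 3.12 and 0.381 in NC, 9.89 and 4.55 in PC, 5.62 and 28.3 in Ex, and no count in either ExDSS library. Aurkb, the kinase of the chromosomal passenger complex, likewise had no count in ExDSS, and its highest value was 6.25 in PC 1. Aurkb was low elsewhere too, with no count in NC 2, 3 counts in Ex 2 and 14 in PC 2.

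Among kinesins and spindle proteins, Kif20b and Prc1 were lowest in ExDSS, and Tpx2 and Kif4 were not. Kif20b (chromosome 19, 34922358 to 34975731), a kinesin of the late spindle and of cytokinesis, was at 28.6 and 8.58 normalised CPM in NC, 75.4 and 46.1 in PC, 54.7 and 83.4 in Ex, and 0 and 0.0838 in ExDSS, where the last value is 1 count. Every PC and Ex library lay above every NC library, and both ExDSS libraries lay far below. Prc1, which bundles microtubules at the spindle midzone, followed the same order with 18.4 and 7.43 in NC, 49.2 and 25.6 in PC, 31.9 and 135.5 in Ex, and 3.29 and 2.09 in ExDSS. Kif15, a spindle kinesin, was at 8.82 and 0.477 in NC, 31.7 and 14.9 in PC, 18.4 and 14.9 in Ex, and 3.15 and 0.0838 in ExDSS. Tpx2, which recruits Aurora A kinase to the spindle, did not share this pattern: it stood at 16.1 and 4.96 in NC, 30.6 and 14.6 in PC, 16.5 and 184.6 in Ex, and 43.6 and 17.3 in ExDSS. Kif4, a chromosome-arm kinesin, was higher in both ExDSS libraries (22.6 and 12.7) than in both PC libraries (10.3 and 5.18).

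Of the kinetochore genes, Cenpa and Ndc80 were close to absent in ExDSS while Birc5 was not. Cenpa, the histone variant that marks centromeres, was at 13.4 and 4.96 normalised CPM in NC, 29.7 and 17.8 in PC, 14.9 and 1.49 in Ex, and 0 and 0.0838 in ExDSS. Ndc80, which links kinetochores to microtubules, had 11.2 and 5.43 in NC, 15 and 7.53 in PC, 6.74 and 0 in Ex, and 0.137 and 0 in ExDSS. Birc5, which encodes survivin, another passenger protein, had 57.4 and 24.6 in NC, 99.8 and 40.4 in PC, 37.3 and 0 in Ex, and 27.0 and 41.1 in ExDSS, where its values overlapped those of NC and PC. Cenpf, a kinetochore protein of G2 and M, had 30.2 and 33.5 in NC, 102.7 and 52.3 in PC, 60.5 and 17.9 in Ex, and 47.0 and 3.10 in ExDSS.

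Top2a and Mki67 are widely used as proliferation markers. Top2a, the topoisomerase that untangles replicated chromosomes, was at 185.9 and 148.5 normalised CPM in NC, 268.3 and 134.3 in PC, 143.5 and 204.0 in Ex, and 223.5 and 68.7 in ExDSS, with overlap between every pair of groups. Mki67, which coats mitotic chromosomes, had 41.6 and 58.3 in NC, 102.1 and 51.9 in PC, 54.4 and 0 in Ex, and 26.9 and 13.5 in ExDSS. In Ex 2 a level of up to 4.47 normalised CPM is compatible with no count, the level of 3 counts, so the missing Mki67 there lies well under its level in the other 7 libraries. Cdc20, the activator of the anaphase-promoting complex, had 2.59 and 0.381 in NC, 25.4 and 13.3 in PC, 15.2 and 11.9 in Ex, and 0 and 11.8 in ExDSS. Cdc20 overlaps Elovl1 on the opposite strand, and no source used here says whether reads were counted by strand.

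On the S-phase side, the PC and NC libraries overlapped for 5 of 8 genes. Without overlap, 2 were higher in PC (25%, against 31% of all genes tested) and 1 was lower (12.5%, against 23.6%). Pcna, the sliding clamp of the replication fork, stood at 55.0 and 11.6 normalised CPM in NC, 48.0 and 41.1 in PC, 32.7 and 2.98 in Ex, and 11 and 28.9 in ExDSS. Mcm7, a subunit of the replicative helicase, stood at 17 and 7.05 in NC, 39.4 and 28.1 in PC, 24.5 and 35.7 in Ex, and 46.6 and 6.78 in ExDSS. The lowest values came from Rrm2, the regulated subunit of ribonucleotide reductase, which had 9.95 and 1.24 in NC, 8.07 and 3.77 in PC, 2.14 and 2.98 in Ex, and 0.137 and 0 in ExDSS. The other helicase subunits did not move as one: Mcm5 was at 0 in ExDSS 1 and 24.8 in ExDSS 2, whereas Mcm2 was at 10.4 and 0.0838 there.

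Outside that side, Tyms, which makes thymidylate, varied little apart from its absence in Ex 2, with 31.4 and 21.7 normalised CPM in NC, 32.4 and 25.3 in PC, 26.9 and 0 in Ex, and 40.0 and 31.1 in ExDSS. Rrm1, the large reductase subunit, had 37.4 and 6.77 in NC, 55.5 and 36.1 in PC, 29.9 and 116.1 in Ex, and 8.50 and 21.8 in ExDSS. Clspn, which encodes the replication checkpoint adaptor claspin, had between 4.71 and 11.7 in NC, PC and Ex 1, 303.7 in Ex 2 (204 counts), and 0 and 0.0838 in ExDSS. Hmgb2, an HMG-box protein abundant in proliferating cells, was close between the libraries of a group, with 61.3 and 40.9 in NC, 137.2 and 96.4 in PC, 112.8 and 111.7 in Ex, and 11.8 and 12.1 in ExDSS. Ccna2, the cyclin of S phase and G2, had 100.5 and 60.1 in NC, 107.5 and 65.0 in PC, 80.0 and 32.8 in Ex, and 19.9 and 57.2 in ExDSS, and overlaps Exosc9 on the opposite strand.

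**Figure D2:**
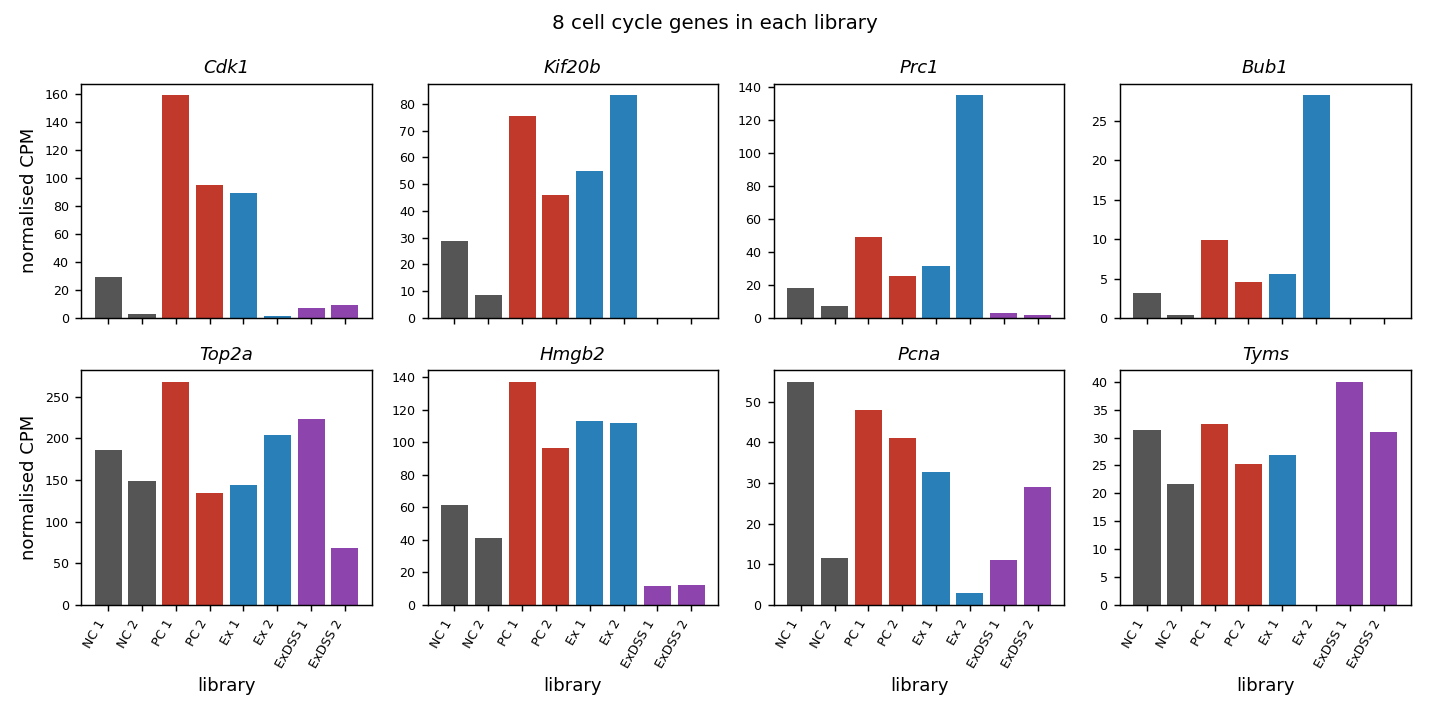
Bars give normalised CPM of 8 members in each library on linear axes from 0, coloured by group. Kif20b, Prc1 and Hmgb2 are lowest in both ExDSS libraries, whereas Tyms reaches its highest value, 40.0, in ExDSS 1.

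The 2 libraries of a group often disagreed over the whole set. In PC 1, 41 of 42 members were higher than in PC 2 (97.6%), while 49.2% of all genes tested were, and the median absolute difference between the 2 libraries was 0.82 on the log2(normalised CPM + 1) scale for the members against 0.22 for all genes tested. NC 1 was above NC 2 for 39 members (92.9%, against 58.7% of all genes tested). In Ex the count was 26 members higher in Ex 1 (61.9%, against 73.3%) and in ExDSS 21 higher in ExDSS 1 (50.0%, against 33.9%). Summed over the 26 mitotic members, levels were 650 and 399 normalised CPM in NC, 1400 and 724 in PC, 778 and 823 in Ex, and 538 and 232 in ExDSS. PC 2 therefore lay nearer to NC 1 than to PC 1. The sum in Ex 2 came largely from the kinesin and spindle genes, which reached 505 there and 166 in Ex 1, whereas its cyclins and kinases summed to 59.6 against 185.

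**Figure D3:**
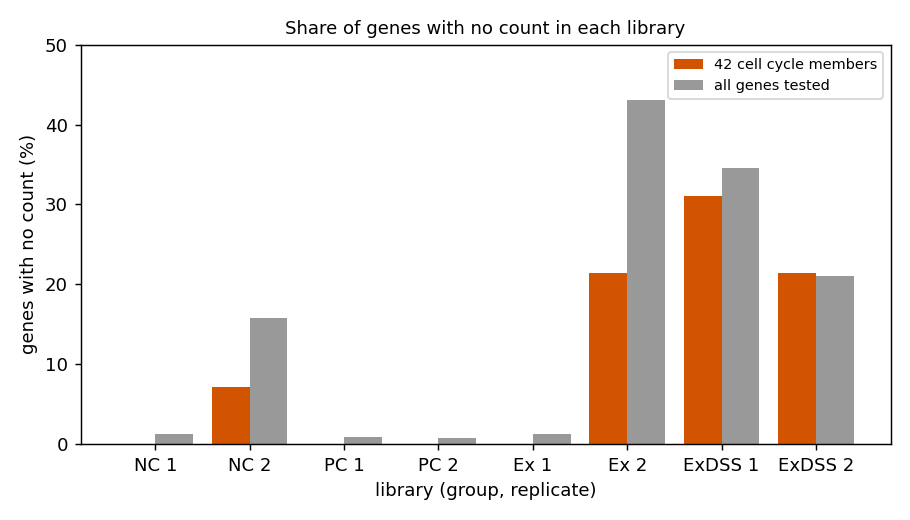
Bars give, for each library, the percentage of the 42 members (orange) and of all 14567 genes tested (grey) with no count. The members reach 31.0% in ExDSS 1 and 21.4% in ExDSS 2 and Ex 2, where all genes tested reach 34.6%, 21.1% and 43.1%.

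Missing members have to be read against missing genes in general. In ExDSS 1, 13 of 42 members had no count (31.0%), against 34.6% of all genes tested. In ExDSS 2 it was 9 members (21.4%, against 21.1%), in Ex 2 also 9 (21.4%, against 43.1%) and in NC 2 it was 3 (7.14%, against 15.8%). Shares of members with no count were thus near or under those of all genes. In ExDSS 1 the missing genes were 8 of 26 mitotic members and 4 of all 13 S-phase members, 30.8% of each. In Ex 2 and in ExDSS 2 they were 7 of 26 mitotic (26.9%) and 2 of 13 S-phase members (15.4%).

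The balance of S phase to mitosis was measured within each library as the share of S-phase counts (Mcm2 to Mcm7, Pcna, Rrm2) in the summed counts of these 8 and the 26 mitotic genes, a ratio that does not depend on scaling between libraries. It was 20.8% in NC 1 (exact Clopper-Pearson 95% interval 20.1 to 21.5%, counting error only) and 17% in NC 2 (15.9 to 18.0%). In PC it was 12% (11.5 to 12.4%) and 16% (15.3 to 16.7%), below both NC values, although the intervals of PC 2 and NC 2 overlap. In Ex the values were far apart, at 11.6% (10.9 to 12.3%) and 21.2% (18.3 to 24.4%). In ExDSS they were 16.6% (15.5 to 17.7%) and 29.5% (28.1 to 31.0%), above both PC values, with overlapping intervals for ExDSS 1 and PC 2. Group means were 18.9 ± 2.69% in NC, 14.0 ± 2.84% in PC, 16.4 ± 6.80% in Ex and 23.0 ± 9.15% in ExDSS (SD, n = 2). Top2a alone held between 18.5% and 41.5% of the mitotic counts. Without Top2a and Pcna, the most abundant member of each side, the shares were 19.9% and 21.8% in NC, 11.2% and 14.1% in PC, 9.87% and 26.1% in Ex, and 23.3% and 29.5% in ExDSS, and the PC values again lay below those of NC and ExDSS. With the 5 other S-phase genes added to the S-phase side, the shares were 30.3% and 26.1% in NC, 18.7% and 25.1% in PC, 20.4% and 45.9% in Ex, and 22.4% and 40.4% in ExDSS, so PC and ExDSS overlapped and the difference between them was lost.

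**Figure D4:**
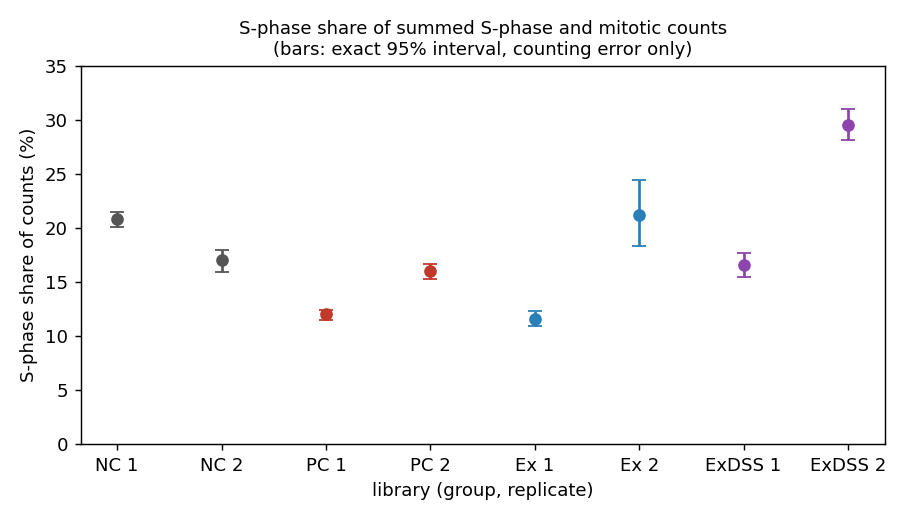
Points give the S-phase share of summed S-phase and mitotic counts in each library, in percent, coloured by group, with exact 95% intervals for counting error. PC 1 and Ex 1 are lowest (12% and 11.6%) and ExDSS 2 is highest (29.5%).

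DSS without exosomes was examined by comparing PC with NC. Mitotic genes had higher means in PC and S-phase genes smaller differences. Of the 42 members 40 had a positive log2 fold change, all but Aurka and Mcm3, as had 53.3% of all genes tested. The median was 1.33 over the 26 mitotic members and 0.33 over the 8 S-phase members, against 0.10 over all genes tested. The groups did not overlap for 18 members that were higher in PC (42.9%, where 31% of all genes tested were higher without overlap), 14 of them mitotic, and for 1 that was lower, Mcm3 (23.6% of all genes tested). None of the 42 members passed edgeR's quasi-likelihood test, nor did any gene (0% called in either direction), and no member had an unadjusted p under 0.05, against 0.686% of all genes tested for higher and 1.81% for lower. DESeq2 called 0 members, where it called 0.0343% of all genes higher and 0.556% lower, and limma-voom called 0 members, where it called 0.0137% of all genes lower. The smallest p among members belonged to Cdk1, with a mean of 127.1 ± 45.8 normalised CPM in PC and 16.2 ± 19.0 in NC (SD, n = 2), a log2 fold change of 2.97 (SE 1.59) and an edgeR adjusted p = 1. Cdc20 (3.69, SE 2.26) and Kif20b (1.71, SE 1.37) followed, each also at an edgeR adjusted p = 1. The member median of 0.84 was 0.38 without NC 2, 0.48 without PC 1 and 1.73 without NC 1.

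**Figure D5:**
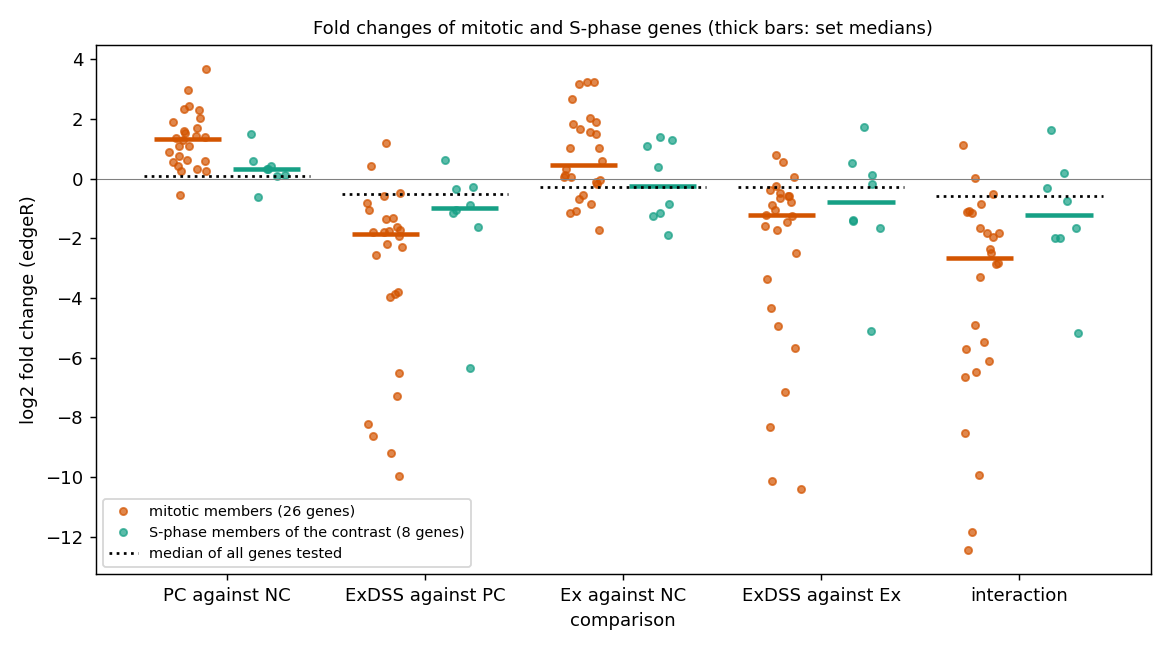
Points are edgeR log2 fold changes of the 26 mitotic (orange) and 8 S-phase (green) members in each comparison, thick bars their medians, and dotted lines the median of all genes tested. The mitotic median lies above the S-phase median for PC against NC (1.33 and 0.33) and below it for ExDSS against PC (-1.86 and -0.98).

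Exosomes before DSS were compared with DSS alone by setting ExDSS against PC, and here most members had lower means in ExDSS. Of the 42 members 38 had a negative log2 fold change, against 59.3% of all genes tested, and the exceptions were Kif4, Tpx2, Mcm3 and Tyms. The median was -1.86 over mitotic and -0.98 over S-phase members, both the same with genes at 0 set at their bound, against -0.51 over all genes tested. All 8 cyclins and kinases and all 6 kinetochore genes were negative. The groups did not overlap for 30 members lower in ExDSS (71.4%, against 45.4% of all genes tested), and for 1 higher, Kif4 (18.9%). edgeR called 0 of the 42 members and 0% of all genes. Of the members, 12 were lower at an unadjusted p under 0.05 (28.6%, against 16.1% of all genes tested), and DESeq2 called 9 (21.4%, against 7.91%) and limma-voom 7 (16.7%, against 7.32%). No member was called higher by either tool, where DESeq2 called 2.57% and limma-voom 0.645% of all genes higher, and none was higher at an unadjusted p under 0.05 (2.84% of all genes). Kif20b held 1 count in ExDSS and 1624 in PC, a ratio of 1180 (exact 95% interval 211 to 46600, counting error only), with a fitted log2 fold change of -9.96 (SE 2.06, edgeR adjusted p = 0.228). For Clspn the ratio was 160 (28.5 to 6360) and for Cenpa 461 (82.4 to 18200), each from 1 count in ExDSS and with an edgeR adjusted p = 0.228. Bub1, Ccne1 (the G1/S cyclin E1) and Aurkb had no count in ExDSS and were at least 21.8-fold, 12.7-fold and 11.1-fold lower there, against a floor of 3 counts per library. Of all genes tested, 34.6% and 21.1% had no count in these ExDSS libraries. The member median of -1.76 was -1.20 without PC 1, -2.70 without ExDSS 1 and -2.67 without ExDSS 2.

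Exosomes without DSS were compared with saline in Ex against NC, and the members had no common direction. Of the 42 members 26 were positive, against 43.6% of all genes tested, with a median of 0.45 over mitotic and -0.24 over S-phase members and -0.27 over all genes. Kinesin and spindle genes had the highest median, 1.86, with 7 of 8 positive, and kinetochore genes the lowest among the mitotic roles, -0.43, with 1 of 6 positive. edgeR called 0 members and 0% of all genes, and 2 members were higher at an unadjusted p under 0.05 (4.76%, against 2.89% of all genes tested). These were Clspn (log2 fold change 4.43, SE 1.70, edgeR adjusted p = 0.93) and Tpx2 (3.24, SE 1.53, edgeR adjusted p = 0.93). Prc1 came next (2.69, SE 1.45, edgeR adjusted p = 0.956). All 3 were highest in Ex 2, and without that library the log2 fold change of Clspn was -0.21. The member median of 0.48 was -0.41 without Ex 1, 1.29 without NC 1, 0.023 without NC 2 and 0.33 without Ex 2. In the fit without Ex 1, 4 members were called (9.52%, against 10.4% of all genes), the median of all genes was -3.97, and the S-phase median of -0.082 lay above the mitotic median of -0.99. The groups did not overlap for 11 members higher in Ex (26.2%, against 11.1% of all genes tested) and 4 lower, Plk1, Aurka, Mcm2 and Mcm5 (9.52%, against 22.9%). DESeq2 called 1 member, Clspn, where 1.5% of all genes were called higher and 0.81% lower, and limma-voom called 0. No member was lower at an unadjusted p under 0.05 (2.42% of all genes).

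DSS within the exosome-treated mice was examined by ExDSS against Ex. Of the 42 members 35 were negative, against 54.3% of all genes tested, with medians of -1.22 over mitotic, -0.77 over S-phase members and -0.29 over all genes. The 7 positive members were Ccnb2, Aurka, Birc5, Mcm2, Mcm5, Pcna and Tyms, none with a p under 0.05. Groups did not overlap for 14 members lower in ExDSS (33.3%, against 17% of all genes tested) and for 1 that was higher, Tyms (2.38%, against 17%). edgeR called 0 members and 0% of all genes. At an unadjusted p under 0.05, 9 members were lower (21.4%, against 16.2%), and DESeq2 called 8 (19.0%, against 11.4%) and limma-voom 3 (7.14%, against 2.92%). No member was higher by any of these measures, against 3.55% of all genes at an unadjusted p under 0.05, 2.69% by DESeq2 and 0.542% by limma-voom. Kif20b held 592 counts in Ex and 1 in ExDSS, a ratio of 1090 (exact 95% interval 195 to 43000, edgeR adjusted p = 0.147). Clspn had a ratio of 483 (86.0 to 19200, edgeR adjusted p = 0.147), but 204 of its 263 counts in Ex came from Ex 2, and its log2 fold change of -11.30 was -6.69 without that library. Bub1 was at least 51.2-fold lower in ExDSS (edgeR adjusted p = 0.236). The member median of -1.39 was -0.29 without Ex 1, -2.34 without ExDSS 1 and -2.16 without ExDSS 2. In the fit without Ex 1, 7 members were called (16.7%, against 12.2% of all genes), the median of all genes was 1.98, and the S-phase median of -1.02 lay below the mitotic median of 0.044. The comparisons share libraries with each other (ExDSS here and against PC), so their values are not independent.

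The interaction asks whether the difference made by DSS depended on exosomes, as the change from Ex to ExDSS minus the change from NC to PC. Its positive side holds NC and ExDSS and its negative side PC and Ex, which is also how the summed neutrophil markers split, though not Csf3r and Mmp9 among them. Of the 42 members 37 were negative (88.1%, against 56.8% of all genes tested), with medians of -2.66 over mitotic, -1.21 over S-phase members and -0.58 over all genes. The 5 positive members were Aurka, Birc5, Mcm2, Mcm5 and Tyms. At an unadjusted p under 0.05, 8 members were lower (19%, against 13%), and DESeq2 called 7 (7.26% of all genes) and limma-voom 2 (1.49%). None was higher, against 5.86% of all genes at an unadjusted p under 0.05, 4.22% by DESeq2 and 0.755% by limma-voom. Kif20b was the 1 member that passed edgeR's adjusted threshold (log2 -11.85, SE 2.45, edgeR adjusted p = 0.0396), where 0.0275% of all genes were called lower and 0.261% higher. The size of this fitted value depends on the prior count, since ExDSS held 1 count. Clspn (log2 -11.50, SE 2.69, edgeR adjusted p = 0.072) and Bub1 (edgeR adjusted p = 0.156) did not pass. All 4 libraries of NC and ExDSS lay below all 4 of PC and Ex for 6 members (14.3%, against 6.06% of all genes tested). These were Kif20b, Bub1, Kif15, Prc1, Cdc20 and Hmgb2. None lay above (8.48% of all genes tested). For Cdc20 the gap was narrow, with 11.91 normalised CPM in Ex 2, from 8 counts, and 11.81 in ExDSS 2, from 141 counts. The call of Kif20b was lost without any 1 of the libraries other than Ex 1, with an edgeR adjusted p between 0.0898 without NC 1 and 0.317 without NC 2. For Clspn the interaction was -6.95 without Ex 2. In the fit without Ex 1, 5 members passed (11.9%, against 10.8% of all genes), the median of all genes was 2.11, and the order of the sides turned, with an S-phase median of -1.61 and a mitotic median of -0.88. The member median of -2.43 was -1.49 without Ex 1 and -3.66 without NC 1.

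Cell cycle genes outside the 42 were read from lists of further replication, mitotic and regulatory genes. None of these genes passed edgeR's test in any of the 5 comparisons. Of 62 other G2 and M genes, 47 were negative in the interaction (75.8%, against 56.8% of all genes tested), with a median of -2.42. At an unadjusted p under 0.05, 20 of the 62 were lower (32.3%, against 13%). DESeq2 called 12 of the 62 lower (19.4%, against 7.26%) and limma-voom 3 (4.84%, against 1.49%). Among them Lin9, a core subunit of the DREAM and B-MYB complexes, had 5.04 and 0.286 normalised CPM in NC, 11.5 and 6.43 in PC, 9.19 and 44.7 in Ex, and no count in ExDSS (edgeR adjusted p = 0.146). Kif2c, a microtubule-depolymerising kinesin, had 3.65 and 2.86 in NC, 17.6 and 9.02 in PC, 16.7 and 11.9 in Ex, and no count in ExDSS (edgeR adjusted p = 0.149). Both showed the order seen for Kif20b, with every PC and Ex library above every NC and ExDSS library. They were picked for the smallest interaction p in the list, which favours such an order. Of the 62 genes, 5 showed it (8.06%, against 6.06% of all genes tested) and 1 the reverse (1.61%, against 8.48%).

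Of 40 other G1/S and replication genes, 24 were negative in the interaction (60%, against 56.8% of all genes tested; median -1.09), with 3 lower (7.5%, against 13%) and 2 higher (5%, against 5.86%) at an unadjusted p under 0.05. Rpa2, a subunit of the single-stranded DNA binding complex, was higher on the NC and ExDSS side, at 64.4 and 294 normalised CPM in NC, 30.9 and 20.5 in PC, 18.5 and 2.98 in Ex, and 192 and 110 in ExDSS (edgeR adjusted p = 0.149). Mcm10, a replication initiation factor, had 7.82 and 5.43 in NC, 7.92 and 3.77 in PC, 2.45 and 17.9 in Ex, and no count in ExDSS (edgeR adjusted p = 0.207).

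Cell cycle brakes (18 of 19 tested) had a median of -1.31 in the interaction, with 1 gene higher (5.56%, against 5.86% of all genes tested) and 1 lower (5.56%, against 13%) at an unadjusted p under 0.05. Btg1, an antiproliferative gene, had 63.8 and 31.7 normalised CPM in NC, 64.4 and 86.1 in PC, 105 and 287 in Ex, and 6.03 and 30.7 in ExDSS (edgeR adjusted p = 0.245). E2f5, a repressive E2F, ran the other way with 96.3 and 346 in NC, 60.7 and 70.4 in PC, 94.6 and 17.9 in Ex, and 351 and 240 in ExDSS (edgeR adjusted p = 0.247).

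G1 cyclins and growth drivers (11 tested) had a median of -0.67, with 3 lower (27.3%, against 13%) at an unadjusted p under 0.05. Myc, the growth-promoting transcription factor, was at 2.32 and 0 in NC, 1.53 and 1.57 in PC, 3.68 and 29.8 in Ex, and had no count in ExDSS (edgeR adjusted p = 0.205), and its relative Mycn never exceeded 2.45 (edgeR adjusted p = 0.186). Intestinal stem cell and crypt genes (15 of 18 tested) had a median of -1.89, with 5 lower (33.3%, against 13%) and 1 higher (6.67%, against 5.86%) at an unadjusted p under 0.05. Lgr5, the receptor that marks crypt base stem cells, was at 0.597 and 0.0953 in NC, 3.34 and 5.02 in PC, 2.45 and 0 in Ex, and had no count in ExDSS (edgeR adjusted p = 0.192). Prom1, a membrane protein of crypt progenitors, stood higher on the NC and ExDSS side, at 551 and 1390 in NC, 175 and 128 in PC, 91.8 and 0 in Ex, and 458 and 840 in ExDSS (edgeR adjusted p = 0.192).

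Markers of other cells that can divide varied among the same libraries. Germinal centre B cell markers (6 genes) summed to between 13.2 and 25.7 normalised CPM in NC 1, PC and Ex, and to 54.7 in NC 2, 93.0 in ExDSS 1 and 71.8 in ExDSS 2. T cell markers (7 genes) summed to between 7.86 and 55.6 in 7 libraries and to 0 in Ex 2. Erythroid markers (7 genes) summed to between 861 and 2220 in 6 libraries, to 7270 in ExDSS 2 and to 34.2 in Ex 2. Crypt genes (18 genes) summed to 879 and 1690 in NC, 630 and 522 in PC, 394 and 643 in Ex, and 628 and 1170 in ExDSS. Prom1 alone held most of this sum in NC (551 and 1390) and ExDSS (458 and 840), with 175 and 128 in PC. The sum therefore does not stand for the list. Of the 15 crypt genes tested, 11 were negative in the interaction and 4, Prom1 among them, were positive. The part of all these markers in the levels of the cell cycle members was not tested.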

How the data were processed

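Per the labels' protocols, Trizol-extracted RNA went into QuantSeq 3' mRNA libraries, so a read marks the 3' end of a transcript and counts do not scale with gene length. The authors deposited 1 table of raw counts, with a line per gene and a column per library. All 8 columns matched a sample title. The submitters' processing notes name Bowtie2, bedtools, edgeR and the build mm9, without versions, but of 22139 lines matched by name and chromosome to GENCODE M21, 99.69% overlap the GRCm38 gene of that name, as do all 42 members, so positions are given as GRCm38.

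Counts were tested with edgeR 4.0.16 (R 4.3.3, limma 3.58.1) using TMM factors, filterByExpr (minimum count 10, total 15), 1 coefficient per group over 8 libraries (4 residual degrees of freedom) and the robust quasi-likelihood F test. The Benjamini-Hochberg adjustment ran over the 14567 genes tested, with a threshold of 0.05. Each SE is the size of the log2 fold change over the root of its F. Alternatives were DESeq2 1.42.0, limma-voom, other scalings and filters, a replicate block and left-out libraries. Scripts were tested on simulated counts that varied less than these data (common dispersion 1.173), so that test does not show the power or error reached here. The labels do not say whether replicate numbers pair libraries. Correlations of within-group differences between groups ran from -0.201 to 0.0543. These differences also carry the uneven pancreatic and Rn45s content of the libraries, so low correlations cannot show that pairing is absent.

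The members, role groups and lists were chosen with earlier results of these data known. Values are given for the 2 members with most counts in each role, the 3 with the smallest p in each comparison, and the 2 genes of each other list with the smallest interaction p. Other members named (such as Aurkb, Aurka, Plk1, Kif15, Kif4, Ndc80, Rrm2, Mcm2, Mcm3, Mcm5 and Ccne1) were picked after their values were seen. Intervals and floors (3 counts per library) cover counting error only.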

Additional observations from a re-analysis of the deposited data

Results flagged for a closer look

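By the labels, the difference between DSS and no DSS in Kif20b was not the same without and with exosomes. The interaction test gave a log2 value of -11.85 (SE 2.45, edgeR adjusted p = 0.0396). Kif20b was higher in both PC libraries than in both NC libraries, and lower in both ExDSS libraries than in both Ex libraries. The summed neutrophil markers split along the same sides, NC and ExDSS against PC and Ex, and their part in this result was not tested. When 1 library was left out at a time, the log2 value ran from -14.1 to -11.18, and 1 of these 8 fits kept the call, that without Ex 1. In that fit Ex 2 alone stood for its group, a library of 1163147 counts of which Rn45s held 53.5%.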

How the results depend on the processing

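The direction of the member median was the same under every alternative run, except for Ex against NC without Ex 1. Leaving out 1 library at a time moved the median log2 fold change of the 42 members from 0.382 to 1.73 (PC against NC), -2.70 to -1.20 (ExDSS against PC), -0.406 to 1.29 (Ex against NC), -2.34 to -0.293 (ExDSS against Ex) and -3.66 to -1.49 (interaction). The number of members called ran from 0 to 4 (Ex against NC), 0 to 7 (ExDSS against Ex) and 0 to 5 (interaction), with every highest value reached without Ex 1, where 10.4%, 12.2% and 10.8% of all genes were called, and was 0 throughout for the other comparisons. Where that left a group with 1 library, it was assumed to vary like the others.

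Upper-quartile factors gave medians of 1.15 (Ex against NC), -1.99 (ExDSS against Ex) and -3.13 (interaction), and total counts alone gave -2.53 (ExDSS against PC). These scalings moved the median of all genes in Ex against NC from -0.27 to 0.11 and -0.49. limma-voom gave -3.47 (ExDSS against PC) and -3.19 (interaction). Without both libraries with pancreatic RNA the medians were -2.70 (ExDSS against PC), -2.34 (ExDSS against Ex) and -3.04 (interaction). Members called in ExDSS against PC came to 1 with no filter (0.713% of all genes), 9 by DESeq2 (10.5%) and 7 by limma-voom (7.96%). In ExDSS against Ex they came to 2 (1.20%), 8 (14.0%) and 3 (3.47%), and in Ex against NC to 1 by DESeq2 (2.31%). In the interaction they came to 2 with RLE factors (0.46%), 2 with no filter (1.89%), 7 by DESeq2 (11.5%) and 2 by limma-voom (2.24%), and to 0 with total counts alone and 0 without both pancreatic libraries. With the replicate number as a block, 1 member was called in ExDSS against PC (0.281% of all genes), 2 in ExDSS against Ex (0.192%) and 2 in the interaction (1.11%). The labels do not say that these numbers pair the libraries. The log2 fold change of Clspn in Ex against NC ran from -0.21, a reversed sign, without Ex 2 to 5.28 without Ex 1.

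The mean S-phase share was 28.2% in NC, 21.9% in PC, 33.2% in Ex and 31.4% in ExDSS with the 5 other S-phase genes added, where ExDSS 1 (22.4%) lay below PC 2 (25.1%), and 55.8% in NC, 40.5% in PC, 46.7% in Ex and 57.0% in ExDSS from geometric means. The S-phase median lay below the mitotic median for PC against NC, and above it for ExDSS against PC, under all 17 alternatives. In the other comparisons the order turned: the S-phase minus the mitotic median was 0.905 in Ex against NC, -1.06 in ExDSS against Ex and -0.734 in the interaction without Ex 1, and -0.0209 in ExDSS against Ex with upper-quartile factors. The cause of these changes was not tested. The 2 libraries per group and the 1163147 counts of Ex 2 limit what can be detected.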
